A study of Homo sapiens with 12 samples.

Results

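FOXA1 is a forkhead transcription factor, and the peaks that it left around its own gene are described here. The FOXA1 gene lies on the minus strand of chromosome 14, at hg19 chr14:38058757-38064325, so that its start is the upper end of this interval. Peaks from all 12 deposited lists were taken when their centre fell in the window chr14:37900000-38200000, and peaks that shared at least 1 base were merged. This gave 35 regions of the 178794 that the same merging gave across the genome. Of the 35, 20 lay downstream of the gene, 14 upstream and 1 inside it. Distances in kb are given from the start of FOXA1, and a peak's height is the deposited normalized tag count, tags per peak for a library size of 1e7 tags.

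FOXA1 is known as a pioneer factor, which can bind its motif in compacted chromatin and open it for other factors. In luminal prostate cells it works together with the androgen receptor at enhancers. A factor that binds at its own locus is one of the usual arrangements among lineage regulators, and enhancers on either side of FOXA1 have been described in prostate cancer cells. In the order of RefSeq genes on GRCh38.p14, the nearest protein-coding neighbours are MIPOL1 on the downstream side and TTC6 on the upstream side. A peak marks where an antibody enriched DNA. It does not show which gene the site acts on.

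All libraries were made from LNCaP, an established androgen-responsive human prostate cancer cell line, by chromatin immunoprecipitation and single-end sequencing. For endogenous FOXA1, cells were treated for 7 days with DMSO (the solvent, spelled DMO in some labels), 1 µM EPZ-6438, which inhibits EZH2, the enzyme of Polycomb that methylates histone H3, with 3 µM P5091, which inhibits USP7, an enzyme that removes ubiquitin, or with both compounds (the combination), with 2 libraries per group. For the HA tag, cells carried a pGIPZ control, the hairpin shFoxA1 alone, shFoxA1 with WT FOXA1, or shFoxA1 with FOXA1 carrying the K295A substitution, 5 days after infection and with 1 library per condition. The title of the series concerns the control of FOXA1 protein stability by Polycomb and by a BUB3/USP7 complex. The pGIPZ and shFoxA1 libraries hold no tagged protein by their labels and show the background of the HA antibody. All 8 libraries for endogenous FOXA1 come from LNCaP cells with no hairpin in their labels. Whether replicates came from separate cultures is not stated in the labels, and the p-values below reflect no more than the spread among these 8 libraries. FOXA1 RNA and protein were not analysed here, and so the knockdown and the cell identity were not checked.

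The RefSeq promoter of FOXA1 is shown because 1 of the regions lies directly above the gene and was called in some treatments and not in others. The sequence is the 250 bases before the RefSeq start, on the minus strand at GRCh38.p14 chr14:37595250-37595499, and the capitals mark the forkhead-type word GCAAACA.
FOXA1 promoter: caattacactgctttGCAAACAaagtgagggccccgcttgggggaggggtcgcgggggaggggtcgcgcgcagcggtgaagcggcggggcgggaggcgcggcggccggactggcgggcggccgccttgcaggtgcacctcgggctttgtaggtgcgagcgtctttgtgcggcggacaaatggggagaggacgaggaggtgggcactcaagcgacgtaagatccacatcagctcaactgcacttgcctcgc
The stretch is 67.2% G and C, against a median of 58% over 35116 RefSeq promoters of this length. Of the 4 forkhead words searched on both strands, none occurred in it. These were TGTTTAC, which 2.98% of all promoters hold, TATTTAC, held by 2.39%, then TGTTGAC, held by 1.95%, and lastly TATTGAC, held by 1.14%. At least 1 of the 4 is found in 8.13% of promoters. The androgen receptor word AGAACA was not found either, and 12.4% of promoters hold it. The word in capitals, which reads TGTTTGC on the other strand, was added after the sequence had been seen; it starts 235 bases before the gene start and occurs in 3.23% of promoters. These letters describe the sequence and are not a binding site shown by the data. Coordinates were not converted between builds, so the hg19 peaks were not placed on this sequence.

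Total tags ranged from 12299238 to 22589685 in the FOXA1 libraries and from 11640056 to 13694090 in the HA libraries. Combination replicate 1 stood apart from the rest: it held 30811 peaks, with 5.26% of its tags in them, whereas the other 7 FOXA1 libraries held 68504 to 84423 peaks with 18.9% to 21.2% of tags. The comparisons of treatments that include it are given with and without it. Both replicates of a treatment were filtered against 1 shared input library, with a different input for each treatment, and the HA lists were called without input.

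The locus was densely occupied. Peaks fell in 19 and 18 of the regions with DMSO (replicates 1 and 2), in 18 and 18 with P5091, in 10 and 15 with EPZ-6438 and in 6 and 16 with the combination. The HA antibody gave 18 regions with WT and 16 with K295A, 1 with shFoxA1 alone and 0 with pGIPZ. As a share of all regions of the library, these were 0.0268% and 0.0221% with DMSO and 0.0263% and 0.0217% with P5091. The shares were 0.0129% and 0.0178% with EPZ-6438 and 0.0195% and 0.0192% with the combination. With the HA antibody they were 0.0185% with WT, 0.0196% with K295A and 0.103% with shFoxA1 alone. Among 9690 consecutive windows of 300 kb with at least 1 region, the median held 18 regions and the 90th percentile was 30. In this window there were 35, and 3.66% of all windows held as many or more. The window also held 5 regions called in all 8 FOXA1 libraries, against a median of 2, and 16.3% of windows held as many or more.

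**Figure D1:**
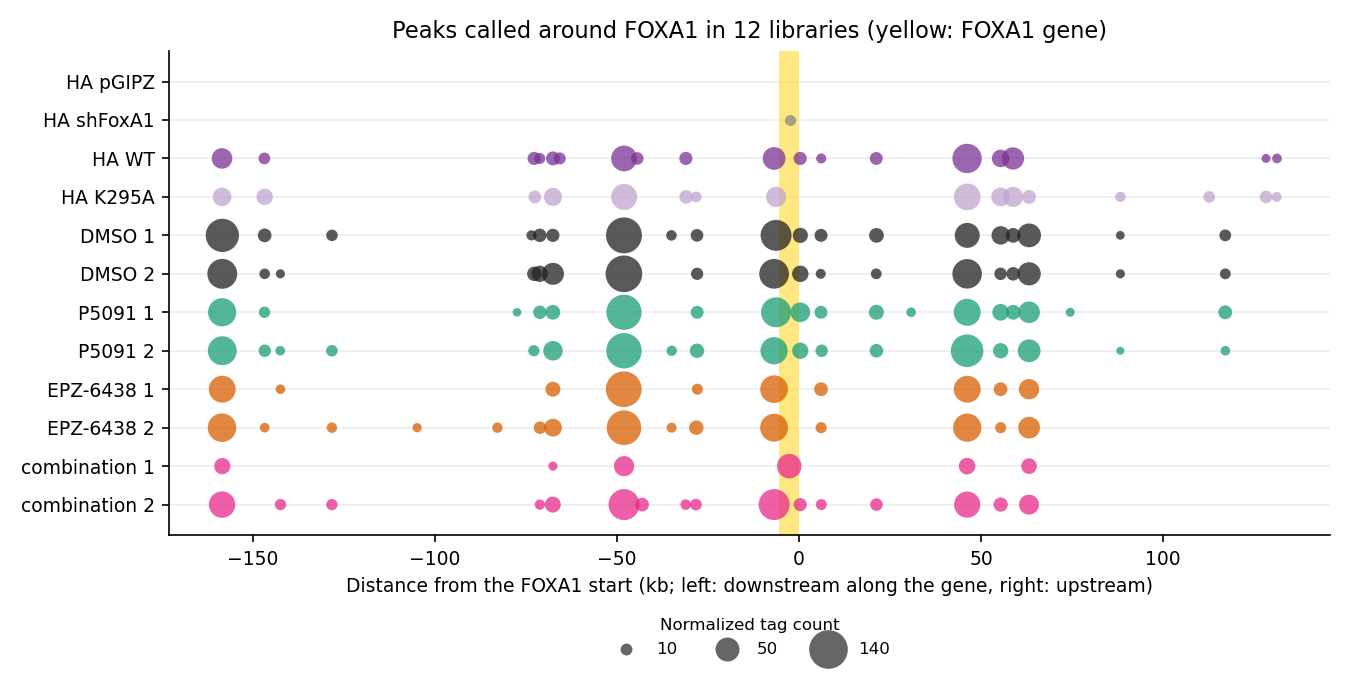
Peaks in the 300 kb window around FOXA1, with distance from the gene start in kb on the horizontal axis (left is downstream along the gene) and 1 row per library; the area of a circle is proportional to the normalized tag count and the yellow band is the gene. The same 5 positions are filled in all 8 FOXA1 libraries, the pGIPZ row is empty, and a circle inside the gene is seen with shFoxA1 and in combination replicate 1.

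Of the 35 regions, 30 were called in at least 1 FOXA1 library. There were 5 called in all 8 libraries, 11 in 4 to 7, 5 in 2 or 3 and 9 in 1, and the remaining 5 were called with the HA antibody only. Across the genome, 24261 of 178794 regions were called in all 8, a share much like that at the locus. Genome-wide numbers for the other groups are not given here. The regions called in all 8 spanned heights from 8.75 to 140.5, with a median of 68.5 over 40 values. Those called in 4 to 7 libraries had a median of 17.2, those in 2 or 3 a median of 13.3, and those in 1 a median of 11. Among the 24261 regions of the genome that were called in all 8 libraries, these 5 took very different places. The region 48.1 kb downstream stood at the 97.2 percentile of mean height, the regions 158 kb downstream and 46.2 kb upstream at 90.9 and 89.5, the region 63.2 kb upstream at 70.4, and the region 67.6 kb downstream at 34.04.

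The strongest constant site lay 48.1 kb downstream, at chr14:38016021-38016444. Its normalized tag count was 135.3 and 140.5 with DMSO, 129.8 and 131.3 with P5091, 133.7 and 125.2 with EPZ-6438, and 42.5 and 100.2 with the combination (replicates 1 and 2). DMSO was highest, P5091 and EPZ-6438 overlapped each other just below it, and both combination libraries were lower than all the others.

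The farthest constant site lay 158 kb downstream, at chr14:37905694-37906112. Its values were 115.5 and 93.5 with DMSO, 83.5 and 87.8 with P5091, 75.7 and 85.4 with EPZ-6438, and 27.5 and 72.6 with the combination. Every library with a compound was below both DMSO libraries here, P5091 and EPZ-6438 overlapped, and the combination was lowest. The third downstream site, at 67.6 kb (chr14:37996532-37996916), had 18.3 and 50.5 with DMSO, 22.8 and 39.9 with P5091, 23.5 and 33.3 with EPZ-6438, and 8.75 and 26.8 with the combination. At this site all 4 groups overlapped, and replicate 2 was above replicate 1 in each of them.

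On the upstream side, the site at 46.2 kb (chr14:38110344-38110727) had 65.1 and 91.1 with DMSO, 76.3 and 111.4 with P5091, 75.7 and 83.7 with EPZ-6438, and 28.8 and 71.8 with the combination. DMSO overlapped all 3 other groups, P5091 and EPZ-6438 overlapped each other, and both combination libraries were below every P5091 and EPZ-6438 library. The site at 63.2 kb (chr14:38127337-38127718) had 59.2 and 56.3 with DMSO, 48.9 and 54.5 with P5091, 43.4 and 49.6 with EPZ-6438, and 25.6 and 41.8 with the combination. DMSO was again highest without overlap, P5091 and EPZ-6438 overlapped, and both combination libraries were lowest.

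**Figure D2:**
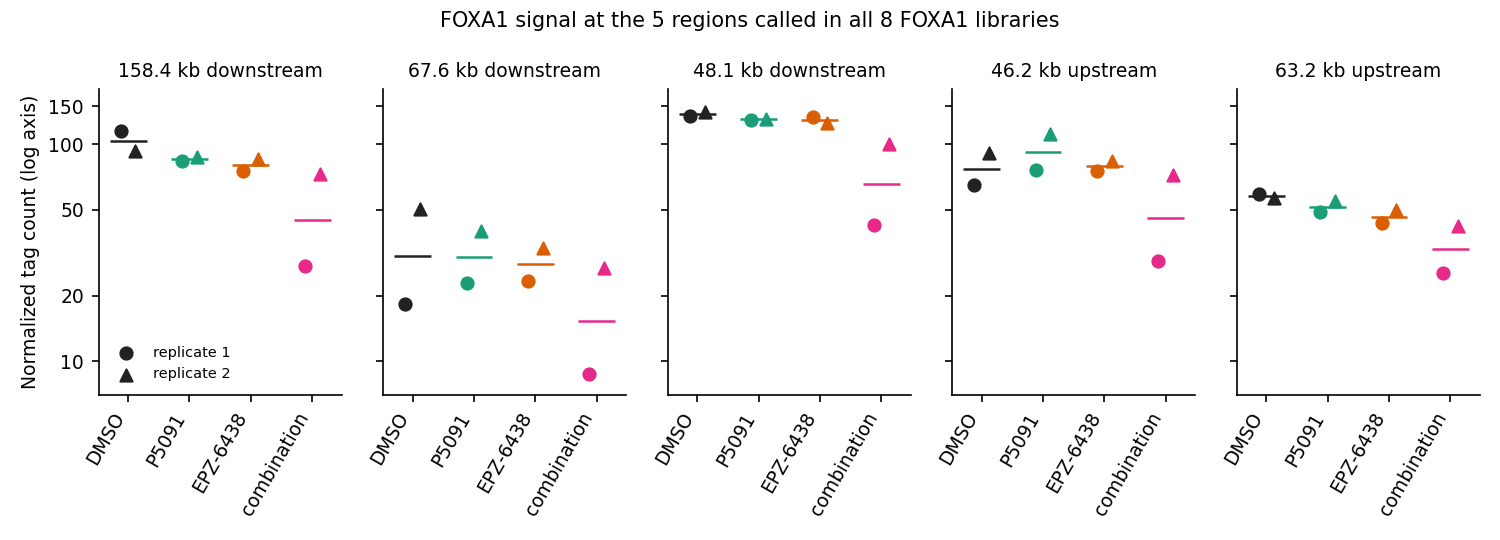
Normalized tag count (log axis) at the 5 regions called in all 8 FOXA1 libraries, 1 panel per region, by treatment; circles are replicate 1, triangles replicate 2 and lines the mean of the log2 values. Combination replicate 1 is the lowest point in every panel, at 8.75 to 42.5, and the DMSO, P5091 and EPZ-6438 points spread most at 67.6 kb downstream, from 18.3 to 50.5, both of them DMSO.

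The compounds were compared by limma on log2 (tag count + 1), without a term for the replicate number. The fit covered all 24261 regions, with adjustment over all of them. With EPZ-6438 against DMSO, 0 of the 5 regions passed an adjusted p of 0.05, and neither did any other region (percent called 0); at an unadjusted p under 0.05 there were 0 of the 5 and 233 of all. The differences at the locus ran from -0.37 (SE 0.58, adjusted p = 1), at the site 158 kb downstream, to 0.05 (SE 0.59, adjusted p = 1), at the site 46.2 kb upstream. Their median was -0.12, beside -0.083 over all regions. The 8 libraries shared 1 estimate of the spread, so combination replicate 1 also entered these SEs. With only the EPZ-6438 and DMSO libraries fitted, the SE at the site 158 kb downstream was 0.31. That fit called 0 of 8 locus regions and 17 of 44880 regions, with 0 and 3056 at the unadjusted p. Its median was -0.11 at the locus, beside -0.063 over all regions. In the fit of all 8 libraries, P5091 against DMSO also gave 0 of 5 (0% of all regions, with 0 and 12 at the unadjusted p). Its differences ran from -0.28 (SE 0.58) to 0.26 (SE 0.59), both with adjusted p = 1. The median was -0.078 at the locus and -0.022 over all regions. It turned positive where more locus regions entered: 0.07 over 8 regions without combination replicate 1, and 0.11 over 12 regions when only the P5091 and DMSO libraries were fitted. The fit of only P5091 and DMSO called 0 of 12 locus regions and 0 of 45549 regions, with 0 and 398 at the unadjusted p. These comparisons share the DMSO libraries.

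With the combination against DMSO all 5 differences were negative, and 0 of 5 passed (0% of all regions; 1 of 5 and 3418 of all at the unadjusted p). The difference was -1.20 on the log2 scale at the site 158 kb downstream (SE 0.58, adjusted p = 0.349) and -1.07 at the site 48.1 kb downstream (SE 0.57, adjusted p = 0.354). The other differences were -0.94, -0.80 and -0.74, with adjusted p from 0.377 to 0.441. The median at the locus was -0.94, beside -0.69 over all tested regions. With each library centred on its median it was -0.26, beside -0.010. The libraries of the combination were unlike each other: in replicate 1 the heights were 23.8% to 47.8% of those of DMSO replicate 1, while replicate 2 had 53.1% to 78.8% of DMSO replicate 2. Heights were not corrected for peak width, which was 279 bases in combination replicate 1 and 365 in DMSO replicate 1. In replicate 2 the widths were 274 and 289 bases. Without combination replicate 1, 8 locus regions were called in all remaining libraries, and their median difference was -0.18, beside -0.097 over all regions, with 0 called. Without combination replicate 2, all 5 were called, as were 66% of all regions, and this comparison rests on combination replicate 1 alone.

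When the 4 libraries with EPZ-6438 (alone or with P5091) were set against the 4 without, the median difference at the locus was -0.52, beside -0.38 over all regions, and 0 of 5 passed (0% of all; 0 of 5 and 2156 of all at the unadjusted p). The adjusted p ran from 0.561 to 0.617. Without combination replicate 1 the median was -0.22 over 8 locus regions, beside -0.086 over all, and 0 were called (0.0185% of all). Without combination replicate 2, 5 of 5 were called (47% of all). For the 4 libraries with P5091 against the 4 without, the median was -0.42, beside -0.32, with adjusted p = 0.840 at each site (0 of 5; 0% of all; 0 of 5 and 203 of all unadjusted). Without combination replicate 1 this median was -0.026 over 8 locus regions, beside -0.016 over all, with 0 called (0% of all). Without combination replicate 2, 2 of 5 were called (29.9% of all). The interaction of the compounds, that is the difference of the combination from the sum of the single effects, had a median of -0.80 at the 5 sites, beside -0.60 over all regions, with adjusted p from 0.874 to 0.887. Without combination replicate 1 the median was -0.17 over 8 sites, beside -0.0069, with adjusted p = 1.00 at each. In a fit with a replicate block and with libraries centred on their medians, 0 of the 5 were called in any of these comparisons. That fit called 0.688% of all regions for EPZ-6438, 4.22% for the combination and 7.56% for the EPZ-6438 libraries.

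Directly below the gene lay a pair of strong sites, and each library with a peak there had exactly 1. The first, 1096 bases beyond the lower end of the gene at chr14:38057299-38057661, was called at 92.3 in DMSO replicate 2, 80.1 and 81.3 with EPZ-6438, 77.5 in P5091 replicate 2, 100.2 in combination replicate 2 and 54.2 with HA WT. The second, 548 bases beyond it at chr14:38057845-38058209, was called at 100.2 in DMSO replicate 1, 93.9 in P5091 replicate 1 and 42.9 with HA K295A. With either site counted, 7 of the 8 FOXA1 libraries had a peak of 77.5 to 100.2, and combination replicate 1 had none. These heights overlapped between treatments and lay within the range of the 3 strongest constant sites.

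The median centres of the pair were 541.5 bases apart. Centres varied by 32 bases within the first site and by 10 within the second. The caller keeps peaks a minimum distance apart, and in all 9 libraries with a peak this distance (548 bases or more) exceeded the spacing, so that a library could hold only 1 of the pair. Whether a library was bound at 1 site or at both therefore cannot be told apart from these lists, and the libraries of 1 treatment could differ: the DMSO replicates had different sites of the pair, and so did the P5091 replicates. Without merging across this gap, both sites count as not called in all 8 libraries, although 7 libraries have the peak at one or the other.

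**Figure D3:**
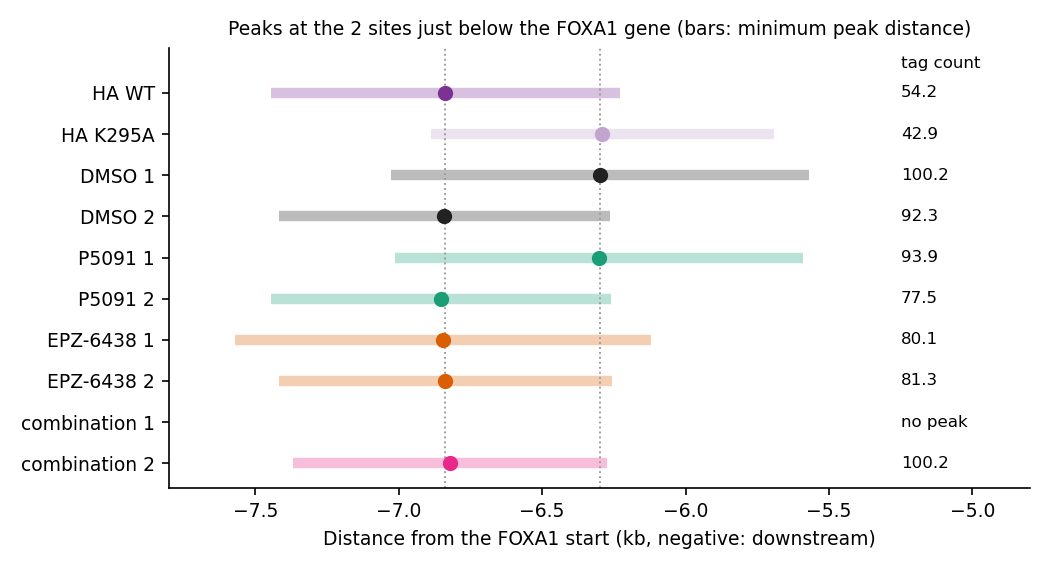
Centres of the peaks at the 2 sites just below FOXA1 (points), with distance from the gene start in kb on the horizontal axis, 1 row per library; pale bars reach to the minimum distance between peaks in that library and dotted lines mark the median centres. The 9 libraries with a peak each have a point on 1 of the lines, combination replicate 1 has none, pGIPZ and shFoxA1 (also without a peak here) are not drawn, and the numbers on the right are normalized tag counts.

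Only 1 region lay inside the gene, at chr14:38061517-38061849. It was called at 63.1 in combination replicate 1 and at 12.9 with shFoxA1 alone, and in no other library, HA WT and HA K295A included. In combination replicate 1 it was the highest peak of the locus, 8.20-fold over the local window and 98.7-fold over input in the authors' list. With shFoxA1, which has no tagged protein by its label, it had 15 tags and was 5.66-fold over the local window. The peak therefore appeared in the 1 FOXA1 library that stood apart and in 1 library of antibody background, and what the 2 libraries share was not tested. The exon or intron under the peak was not assigned, since no hg19 gene models were used here.

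At the gene start, a region 176 bases above it (chr14:38064501-38064870) was called at 24.1 and 28.4 with DMSO, 40.4 and 27.8 with P5091, 18.2 in combination replicate 2 and 18.3 with HA WT. It was called in neither EPZ-6438 library, nor in combination replicate 1, nor with HA K295A. P5091 and DMSO overlapped in height, and combination replicate 2 was below all 4 of those libraries. The nearest peak of an EPZ-6438 library was 5687 bases away. In the authors' lists this region was 5.20-fold and 10.7-fold over input with DMSO and 7.97-fold and 6.40-fold with P5091, where the caller asked for 4-fold. In combination replicate 2 it was 28.4-fold over input. Over the local window, also with a limit of 4-fold, it was 4.95-fold there and 7.33-fold to 10.8-fold with DMSO and P5091.

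In all, 15 regions of the locus were called in both DMSO libraries, and 5 of them (33.3%) were called in neither EPZ-6438 library. Across the genome this share was 7.43%, or 4263 of 57349 regions. Each treatment was filtered against its own input library, so input and treatment cannot be told apart in these losses. With 1 DMSO or 1 EPZ-6438 library left out, 5 to 7 of 15 to 19 locus regions were lost, and the share of all regions rose to between 14.4% and 17.7%. The count without DMSO replicate 2 includes the upper site of the pair below the gene. Both EPZ-6438 libraries had their peak at the lower site of that pair, so this is not a clear loss. The 5 were the region above the gene start and those 21.3, 58.8, 88.2 and 117 kb upstream. Against P5091, 0 of the 15 were lost (5.51% of all regions), and against the combination 4 were lost (13.9%), namely those 147 kb downstream and 58.8, 88.2 and 117 kb upstream. Without combination replicate 1, a count added after seeing the data, the same 4 regions had no peak in the remaining combination library (14.9% of all). In the other direction, 0 of 9 locus regions called in both EPZ-6438 libraries were absent from both DMSO libraries (9.68% of all), and 0 of 12 called in both P5091 libraries (5.13%).

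P5091 can serve as the reference in place of DMSO. Of 12 regions called in both P5091 libraries, 3 were in neither EPZ-6438 library (6.47% of all regions): the region above the gene start and those 21.3 and 117 kb upstream. Against the combination, 2 of the 12 were lost (12.3% of all), 147 kb downstream and 117 kb upstream, and the same 2 had no peak in combination replicate 2 (13.2% of all). Only the region 117 kb upstream (chr14:38181221-38181592) was called in all 4 libraries without EPZ-6438 and in none of the 4 with it, which held for 1 of 12 locus regions and 1.53% of all (also 1 of 12, and 1.6% of all, without combination replicate 1). The reverse, all 4 libraries with EPZ-6438 and none without, held for 0 of 5 locus regions and 0.341% of all. Its heights were 14.6 and 12.2 with DMSO and 20.2 and 9.68 with P5091. It was a weak site, and its nearest EPZ-6438 peak lay 53891 bases away.

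The other regions lost with EPZ-6438 had heights of 6.66 to 23.5 in the FOXA1 libraries. The region 21.3 kb upstream (chr14:38085399-38085796) had 22.7 and 12.2 with DMSO, 23.5 and 19.4 with P5091 and 16.6 in combination replicate 2. The region 58.8 kb upstream (chr14:38122952-38123356) had 22.7 and 19.2 with DMSO and 22.8 in P5091 replicate 1. It was higher in the HA libraries, at 51.9 with WT and 42.2 with K295A, than in any FOXA1 library. The HA and FOXA1 libraries differ in antibody, cells, days and use of input, with 1 library per HA condition. These heights therefore do not compare the strength of binding. The region 88.2 kb upstream (chr14:38152392-38152756) had 8.04 and 8.71 with DMSO and 6.66 in P5091 replicate 2.

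The lost regions were set beside the limits of the peak caller. It asked for a minimum number of tags, 4-fold over input and 4-fold over the local window of 10 kb. Each DMSO value was divided by its limit, and the lowest of these ratios over both DMSO libraries was taken as the margin. The caller also set a p-value limit of 0.0001 for the local window, which did not enter the margin. Among the lost regions the margin was 1.30 above the gene start (set by input), 1.91 at 21.3 kb upstream (set by tags), 1.12 at 58.8 kb (set by the local window), 1.15 at 117 kb (set by input) and 1.00 at 88.2 kb, where DMSO replicate 1 held 11 tags against a threshold of 11. Across the genome, regions with a margin under 1.5 were lost with EPZ-6438 in 18.1% of 16253 cases, those from 1.5 to 2.5 in 6.35% of 19356, and those of 2.5 or more in 0.423% of 21740. At the locus the counts were 4 of 5, 1 of 6 and 0 of 4. Some regions with similar margins were kept. Those at 147 kb (1.46) and 71.2 kb downstream (1.635) were called in 1 EPZ-6438 library. Those at 6.10 kb (1.63) and 55.4 kb upstream (1.91) were called in both. Whether the margin accounts for the losses was not tested. The file lists only peaks that passed every limit, so the height of an uncalled region and the limit that removed it cannot be told apart.

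**Figure D4:**
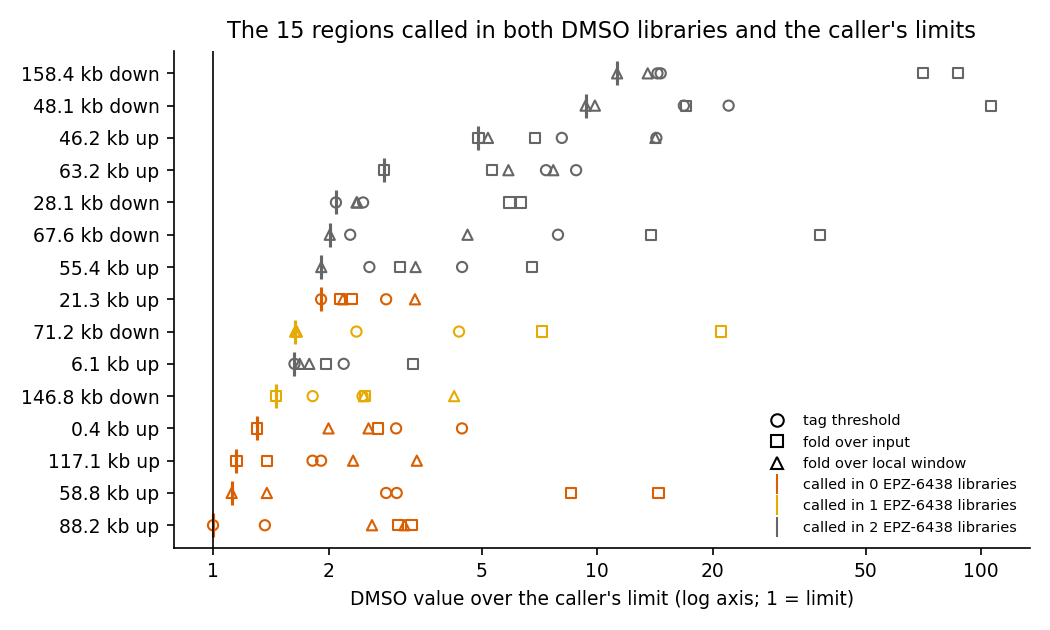
The 15 locus regions called in both DMSO libraries (rows, by distance from the gene start), with each DMSO value divided by the caller's limit on a log axis; circles are tags, squares fold over input, triangles fold over the local window, and a vertical tick marks the lowest. The 5 regions called in no EPZ-6438 library (orange) have lowest ratios from 1.00 to 1.91, and the 4 regions at 2.5 or more were all called in both EPZ-6438 libraries.

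The share of a library's peak signal that fell in the window was lower with EPZ-6438 than with DMSO or P5091. It was 0.0349% and 0.0365% with DMSO, 0.0345% and 0.0340% with P5091, 0.0262% and 0.0271% with EPZ-6438, and 0.0373% and 0.0281% with the combination. In combination replicate 1 the share came to 0.0253% without the peak inside the gene, a split chosen after its value had been seen. With combination replicate 1 left out, the 3 libraries with EPZ-6438 were all below the 4 without it, and 6.61% of 9132 windows showed this pattern, while 10.2% showed the opposite one. The mean height of the peaks did not follow the share: it was 49.4 over 10 peaks in EPZ-6438 replicate 1 and 38.3 over 15 in replicate 2, and 38.5 over 19 and 39.8 over 18 with DMSO. Covered length was 3630 and 4365 bases with EPZ-6438 and 6935 and 5202 with DMSO. The caller set a single peak width in each library, so covered length followed from that width and the number of peaks.

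The tagged proteins had peaks at most of the constant regions of the locus. HA K295A was called at all 5 constant regions and HA WT at 4 of 5, all but the region 63.2 kb upstream, where K295A had 20.3. Peaks of both proteins fell in 11 regions. Of the 18 regions with WT, 7 had WT alone (heights 10.7 to 54.2), where 29.8% of all regions with WT did. Of the 16 with K295A, 5 had K295A alone (11.3 to 42.9), where 16.5% of all did. The first of these ranges ends at the lower site and the second at the upper site of the pair below the gene, where each library can hold only 1 peak. Of the regions with WT or K295A, 18 were also called in a FOXA1 library; the 5 that were not had heights of 8.40 to 16.8. Each condition has 1 library, so these counts have no replicate check. Matching genome-wide shares of overlap with the FOXA1 libraries are not given here, so this overlap cannot be called particular to the locus.

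At the 11 regions with both proteins, the ratio of K295A to WT ran from 0.813 to 1.97, with 7 above 1 and 4 below. Its median on the log2 scale was 0.08, beside -0.09 over all 68151 regions called with both, whose quartiles were -0.38 and 0.21. At the strongest sites the intervals included 1. The region 48.1 kb downstream had 69.5 with WT and 70.8 with K295A. This is a ratio of 1.02, with an interval from counting error (95%) of 0.756 to 1.38. The region 46.2 kb upstream had 90.1 and 74.6, a ratio of 0.828 (0.627 to 1.09), and the region 158 kb downstream had 44.3 and 36.2, a ratio of 0.817 (0.545 to 1.22). None of these differences exceeded counting error.

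The interval left out 1 at 2 of the 11 regions, both higher with K295A. Among all regions with both proteins it left out 1 at 7.44%, with K295A higher at 1.99% and lower at 5.45%. The region 147 kb downstream (chr14:37917326-37917746) had 14.5 with WT and 27.9 with K295A, from 19 and 37 tags, a ratio of 1.92 (1.08 to 3.54). The region 67.6 kb downstream had 20.6 and 34.7, from 27 and 46 tags, a ratio of 1.68 (1.02 to 2.81). The intervals cover counting error only and were not adjusted over the 11 regions. They compare these libraries, not the proteins.

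**Figure D5:**
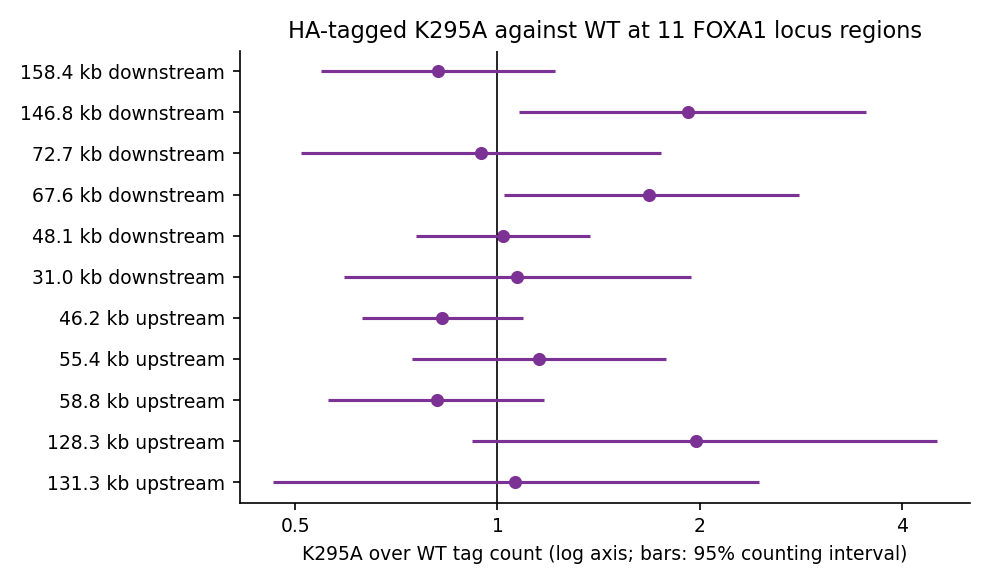
Ratio of the normalized tag count with HA K295A to that with HA WT (log axis) at the 11 locus regions called with both, by distance from the gene start; bars are 95% counting intervals from 1 library per condition. The intervals of 9 regions include 1, and those at 147 and 67.6 kb downstream lie above it.

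The remaining regions were weaker and less regular. Near the gene, the region 6.10 kb upstream (chr14:38070148-38070696) was called in 7 FOXA1 libraries at 10.4 to 19.9, and the region 28.1 kb downstream (chr14:38035895-38036593) in 7 at 12.8 to 22.0. The region 55.4 kb upstream (chr14:38119511-38119918) was called in 7 at 13.0 to 35.8 and with both tagged proteins, at 32.1 with WT and 36.9 with K295A. In these 3 cases the library with no peak was combination replicate 1. The region 71.2 kb downstream (chr14:37992945-37993333) was called at 19.0 and 27.9 with DMSO, 18.9 in P5091 replicate 1, 16.3 in EPZ-6438 replicate 2 and 11 in combination replicate 2. Among the regions called in only 1 FOXA1 library, 8 lay outside the gene at 7.83 to 19.7. The tag threshold of the caller corresponded to heights of 6.20 to 8.13 in the FOXA1 libraries.

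Other windows were ranked by how their constant regions moved over the 8 FOXA1 libraries, with each library centred on its median over all constant regions. Among 1579 windows of 300 kb with at least 5 such regions, the median Pearson r with the FOXA1 window was -0.05. The 3 windows most like it lay on chromosomes 8, 2 and 1, with r of 0.969, 0.935 and 0.883 over 8 libraries and 6, 6 and 9 constant regions. These are the highest of many values, all from the same 8 libraries, which share their antibody but differ in depth. They are given as a description.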

How the data were processed

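Peak lists of 12 libraries were used. Reads were processed with Bowtie2 and HOMER 4.2 on hg19, per the submitters' processing notes. Per the file headers, HOMER called peaks in each library at a false discovery rate of 0.001 and 4-fold over a local window of 10 kb, and for FOXA1 also 4-fold over input. The deposited normalized tag count is a signal value scaled to 1e7 tags by the authors. The deposited findPeaks score served for a stricter threshold (20 for FOXA1, 17 for HA). The deposited fold over input and over the local window is the authors' ratio for each peak. The deposited total tags are a count, given for 3 FOXA1 libraries. Whole tags recovered from the normalized values equalled them for 97.3% to 100% of peaks. For HA WT and HA K295A the recovered tags were whole for 100% of peaks but could not be compared with a deposited count. Counting intervals (exact, 95%) were computed from recovered tags for K295A over WT only. A width per library of 274 to 365 bases for FOXA1 and 233 to 304 for HA was set by the caller, and wider peaks gather more tags.

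Peaks sharing at least 1 base were merged over all 12 lists, and a region took the highest peak of each library. Tag counts were tested with limma 3.58.1 (R 4.3.3, trend on) on log2 (tag count + 1), which understates changes of weak regions, with 4 groups in the model, over the regions called in all 8 FOXA1 libraries, with Benjamini-Hochberg adjustment. The step was tested on simulated data. Values in every library are given for regions called in all 8 FOXA1 libraries, inside or nearest the start of FOXA1, and for the 3 strongest others; regions lost with EPZ-6438 were described after their values had been seen. The members and lists were chosen with earlier results of these data known. Replicate numbers come from the titles. Deviations of replicate 1 from its group mean correlated between groups at 0.148 to 0.488 in 6 of 6 pairs, all above 0.1. The libraries were therefore taken to be paired by number, but the main fit left this pairing out. Its SE and adjusted p do not allow for the pairing, and only some alternative fits included a replicate term. Promoter and neighbouring genes are from RefSeq on GRCh38.p14.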

Additional observations from a re-analysis of the deposited data

How the results depend on the processing

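With the replicate number as a block, the median difference at the locus stayed at -0.12 for EPZ-6438, -0.078 for P5091 and -0.94 for the combination, with 0 regions called, and the pairing changed no call at the locus. Leaving out each library in turn gave a median for the combination from -1.67 to -0.18, and 0 to 5 regions called for the combination, 0 to 5 for the EPZ-6438 libraries and 0 to 2 for the P5091 libraries; the highest counts and the lowest median came without combination replicate 2. Regions called in all FOXA1 libraries numbered 5 to 8, the 8 without combination replicate 1. With a stricter score the locus held 21 regions, not 35, and 3 of 9 regions in both DMSO libraries were lost with EPZ-6438 (4.63% of all regions). Merging across gaps, added after seeing the data, gave 6 of 17 (6.92% of all), and leaving out libraries gave 5 to 7, with 14.4% to 17.7% of all. Without DMSO replicate 2 the count again includes the upper site of the pair below the gene. The median of K295A over WT was 0.08, and -0.03 with the stricter score.

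Some regions that passed no test changed sign. For EPZ-6438, leaving out libraries moved the region 46.2 kb upstream from -0.19 (without DMSO replicate 1) to 0.29, with -0.02 without EPZ-6438 replicate 2, and the region 67.6 kb downstream from -0.83 to 0.59 (without DMSO replicate 2), with 0.12 without EPZ-6438 replicate 1. For P5091, the region 67.6 kb downstream ran from -0.72 to 0.69 (without DMSO replicate 2), with 0.38 without P5091 replicate 1, and the region 46.2 kb upstream from -0.013 (without P5091 replicate 2) to 0.53. For the P5091 libraries, that upstream region ran from -0.59 to 0.055 (without combination replicate 1); it had 0.044 with centring, with or without the replicate block. The cause was not tested. The other alternatives (a pseudocount of 5, summed or trimmed peaks, other merging, fewer libraries in the fit) left each main count within 1.5 times its value and each median within 1 SD of the replicates, although the P5091 median changed sign, to 0.11, with regions called in at least 4 libraries and with only P5091 and DMSO fitted. Over single libraries left out, the EPZ-6438 median ran from -0.36 to -0.064, the P5091 median from -0.24 to 0.068, that of the EPZ-6438 libraries from -0.84 to -0.22 and that of the P5091 libraries from -0.79 to -0.026. The planned edgeR fits were not run.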
